A study of Mus musculus with 16 samples.

Results

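Voltage-gated sodium and calcium channels open when the membrane depolarizes. Sodium channels carry the upstroke of the action potential, and calcium channels couple depolarization to transmitter release, dendritic signalling and gene expression. Each is built around an alpha subunit that forms the pore: Scn alpha genes encode Nav channels and Cacna1 genes encode the Cav1 (L-type), Cav2 (P/Q-, N- and R-type) and Cav3 (T-type) channels. Accessory subunits (Scn beta genes, Cacna2d and Cacnb genes) set how many channels reach the surface and how they gate. The genes described here were chosen by symbol, as all Scn alpha and beta genes and all Cacna1, Cacna2d and Cacnb genes present in both deposited count tables, which gave 32 genes of the 26371 symbols that the tables share.

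Poly(A) RNA was sequenced from cultured cortical neurons. The cells came from C57BL/6 embryos at day 17.5 to 19.5, and pooled cortices of 1 litter made 1 biological replicate. Every culture carried an AAV hairpin added on day 8 in vitro and was collected on day 13. Nup153, the target, is a nucleoporin of the nuclear basket. The 5 groups were silenced shNup153-2 (3 libraries), silenced shControl (3), basal shNup153-2 (2), basal shNup153-1 (2) and basal shControl (4). Silenced cultures had received tetrodotoxin (1 to 2 µM for 24 hours), which blocks most neuronal sodium channels, and D-AP5 (100 µM for 6 hours), which blocks NMDA receptors. The labels list neither agent for the basal groups, and all groups were infected, so no group shows uninfected cells. Of 16 labelled samples, 14 libraries were used, because 2 basal columns share 1 name. The descriptions of the knockdown samples name the control virus, so the titles decided the groups. The labels state that samples were taken forward only where Nup153 knockdown sufficed.

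Total counts ranged from 26863535 to 56299817 per library. Nup153 averaged 11.04 CPM (counts scaled to library size) in silenced shNup153-2, against 59.0 in silenced shControl, and 12.4 in basal shNup153-2 and 22.7 in basal shNup153-1, against 71.1 in basal shControl. In the basal table the columns of shNup153-1 leave the register of the gene symbols in the lower part: their correlation across genes with shControl was 0.9745 on the upper lines and 0.0959 on the last 9972 lines, against 0.9732 and 0.9704 for shNup153-2. Scn2a and Scn9a stand in the lower part and therefore have no value for shNup153-1. The silenced and the basal libraries come from separate count tables, so culture state and table cannot be told apart. In these bulk samples fewer cells of a type and less RNA per cell cannot be told apart either.

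Cell markers differed between groups. The summed level of the 10 neuron markers was 5455 to 9617 CPM over the 14 libraries. The 15 oligodendrocyte lineage markers on usable lines summed to 157 to 607 CPM in silenced shNup153-2 and 262 to 461 CPM in silenced shControl, and to 255 to 379 CPM in basal shNup153-2, 825 to 869 CPM in basal shNup153-1 and 123 to 293 CPM in basal shControl. The 12 markers of GABAergic interneurons summed to 573 to 697 CPM in silenced shNup153-2 and 551 to 575 CPM in silenced shControl, and to 1344 to 1401 CPM in basal shNup153-2, 1614 to 2427 CPM in basal shNup153-1 and 834 to 1594 CPM in basal shControl. The 12 astrocyte markers summed to 285 to 1606 CPM in silenced shNup153-2, 280.3 to 1467 CPM in silenced shControl, 2536 to 2910.0 CPM in basal shNup153-2, 1526 to 3399 CPM in basal shNup153-1 and 642 to 2807 CPM in basal shControl. The 8 radial glia and progenitor markers summed to at most 439 CPM in silenced libraries, 464 to 766 CPM in basal shNup153-2, 716 to 763 CPM in basal shNup153-1 and 282 to 479 CPM in basal shControl. No marker found was at 0 in any group, and the 4 microglial, 6 endothelial and mural, 7 muscle and 5 peripheral sensory markers found summed to at most 30.2 CPM per list and library. The part of these differences in the results below was not tested.

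The basal libraries also differed in how the level of a gene moved with the length of its exons. For each gene, log2 of CPM plus 1 was taken as a deviation from its mean over the 14 libraries. This used the genes that passed the count filter on the lines usable for shNup153-1. Per doubling of exon length the deviation changed by 0.15 and 0.10 in basal shNup153-2 and by -0.13 and 0.06 in basal shNup153-1. In basal shControl it changed by 0.12, -0.12, 0.07 and -0.06. The 6 silenced libraries lay between -0.07 and 0.01. Channel genes are long, with a median exon length of 9283.5 bp over all 32. Their mean deviation was taken without Scn2a, Scn9a, Cacna1f and Scn4a, which were not among the genes used. It was highest in basal shNup153-2 replicate 1 (0.35 on the log2 scale) and lowest in basal shNup153-1 replicate 1 (-0.45). The part of the length trend in the results was not tested, and values with this trend removed are given where they end a call.

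**Figure D1:**
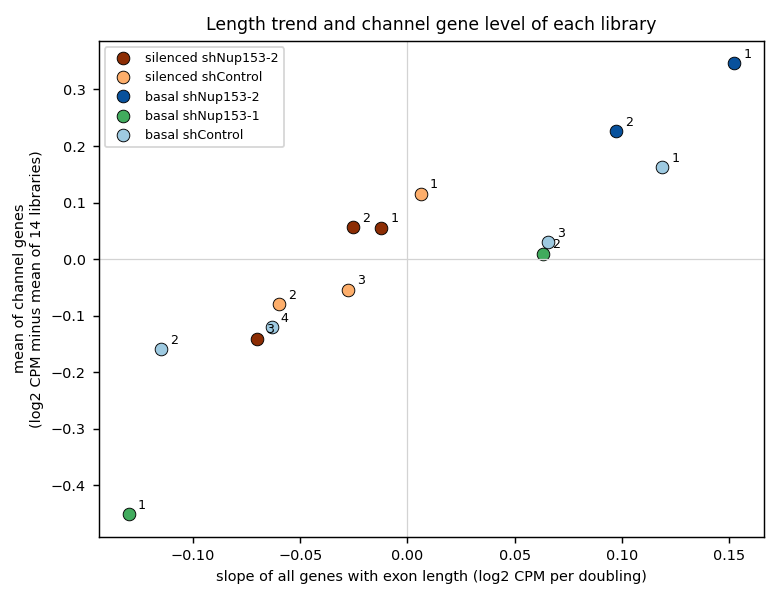
Mean deviation of the channel genes, without Scn2a, Scn9a, Cacna1f and Scn4a, in each of the 14 libraries (y axis, log2 CPM minus the mean of all libraries). The x axis is the slope of this deviation with exon length, per doubling, over the filtered genes on usable lines. Numbers are replicate numbers. Basal shNup153-2 replicate 1 lies highest (slope 0.15, deviation 0.35) and basal shNup153-1 replicate 1 lowest (slope -0.13, deviation -0.45).

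Among the 32 genes, levels per length spanned a wide range. In basal shControl the highest mean was that of Cacna2d1 (43.5 ± 7.72 CPM per kb of exon, SD, n = 4), and Scn3b (40.8 ± 4.51) and Cacnb3 (30.8 ± 11.1) were also high. The order of these 3 genes differed between the basal shControl libraries. Among pore-forming genes Scn2a came first (22.0 ± 6.39 CPM per kb), then Cacna1b (18.3 ± 4.59) and Cacna1i (13.4 ± 1.38). Their spreads between libraries overlap, but within each basal shControl library these genes stood in this order relative to each other. In basal shControl replicate 1, Scn8a lay above Cacna1i. At the low end 5 genes averaged under 1 CPM in every group: Scn4a and Cacna1s, the skeletal muscle channels, Cacna1f, the retinal L-type channel, Scn7a, a sodium-sensing channel of glia, and Scn11a, a channel of pain-sensing neurons. Genes were tested where at least 2 libraries of a fit held 10 or more counts, which left out Cacna1f and Scn4a everywhere and Scn7a and Scn11a in the basal fits.

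Several members lie beside each other in the genome (GENCODE annotation, mm10). Scn3a (chromosome 2, 65457118 to 65567627), Scn2a (65620771 to 65767447), Scn1a (66270778 to 66440840), Scn9a (66480080 to 66634962) and Scn7a (66673425 to 66784914) form a cluster, and Scn10a (119608456 to 119719322) and Scn11a (119753759 to 119825456) lie together on chromosome 9. Scn2b and Scn4b are neighbours on chromosome 9. Exons of 9 members overlap a gene on the other strand, most of all Cacna1s (20.0% of its exon bases) and Cacnb4 (16.0%), and whether counting used the strand is not given in the sources.

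Promoter sequences are shown for 3 genes. Scn1a and Cacna2d3 were chosen because they moved in opposite directions with both hairpins. Cacna1i was chosen because it moved with shNup153-2 at basal state and with silencing in shNup153-2 cultures. The sequences run 5′ to 3′ on the gene's own strand, from 250 bases before to 50 after the start (RefSeq, GRCm38.p6). Capitals mark the motifs searched on both strands, TGACG (the core of the CREB site) and GGGCGG (the GC box). The Scn1a window is chr2:66440788-66441087 (minus strand), that of Cacna2d3 chr14:29721815-29722114 (minus strand) and that of Cacna1i chr15:80286988-80287287 (plus strand).
Scn1a: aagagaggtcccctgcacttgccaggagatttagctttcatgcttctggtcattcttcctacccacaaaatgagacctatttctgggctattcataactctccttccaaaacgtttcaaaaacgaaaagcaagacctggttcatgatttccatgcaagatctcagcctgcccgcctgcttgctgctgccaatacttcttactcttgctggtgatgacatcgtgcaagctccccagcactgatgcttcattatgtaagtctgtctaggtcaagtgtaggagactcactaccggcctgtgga
Cacna2d3: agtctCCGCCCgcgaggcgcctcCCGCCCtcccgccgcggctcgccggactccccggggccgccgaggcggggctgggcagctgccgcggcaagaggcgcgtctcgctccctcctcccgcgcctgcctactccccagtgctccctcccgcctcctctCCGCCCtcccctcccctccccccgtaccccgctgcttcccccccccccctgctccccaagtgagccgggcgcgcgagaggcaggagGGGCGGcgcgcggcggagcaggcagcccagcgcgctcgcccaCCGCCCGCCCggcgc
Cacna1i: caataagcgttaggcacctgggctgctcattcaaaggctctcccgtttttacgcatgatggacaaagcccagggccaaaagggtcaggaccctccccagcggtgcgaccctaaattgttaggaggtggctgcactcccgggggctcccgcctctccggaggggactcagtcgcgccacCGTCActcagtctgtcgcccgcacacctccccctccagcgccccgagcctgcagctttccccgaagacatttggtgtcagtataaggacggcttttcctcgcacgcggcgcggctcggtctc
The Scn1a window holds neither motif and has 47.3% G and C. The Cacna2d3 window holds 6 GC boxes, some of them overlapping, and has 81.3% G and C, and the Cacna1i window holds 1 TGACG and has 62.7%. Of 32851 promoters of the same length, 35.7% hold a GC box and 20.8% hold TGACG, and the median share of G and C is 52.7%. A match is a description of the letters only. A promoter was listed for 24 of the 32 genes.

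Across the 7 comparisons, 14 of the 30 genes tested passed a false discovery rate (FDR) of 0.05 at least once, as did 35.1% of all 21386 genes tested. The test was edgeR's quasi-likelihood F test with Benjamini-Hochberg adjustment over all genes of the fit. Scn1a and Cacna1a rose and Cacna2d3 fell with each Nup153 hairpin at basal state, 3 of the 26 members tested with both. The share of all genes called the same way with both was not counted, so the 3 cannot be set against it. The comparisons of the hairpins share the 4 basal shControl libraries, so the second is no independent support for the first. With basal shNup153-2, 4 of 28 members rose and 1 fell, where 9.1% of all 20191 genes tested were called (5.64% higher, 3.46% lower). With the length trend of the fold change removed, 1 member rose and 1 fell in this comparison. All genes called then numbered 1693, against 1837. With basal shNup153-1, 3 of 26 rose and 3 fell, where 13.3% of 14705 genes were called (6.41% higher, 6.94% lower).

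The median log2 fold change of the members was 0.36 with basal shNup153-2, against -0.029 over all genes, and -0.30 with basal shNup153-1, against -0.016 over all genes. Between the hairpins, 20 of 26 members were higher with shNup153-2 than with shNup153-1 and 6 were lower, where 49.6% of all genes were lower. No member passed the threshold, where 4.33% of all genes did (2.69% higher, 1.64% lower). In that comparison edgeR gave 10 of 26 members and 25.6% of all genes an unadjusted p under 0.05. DESeq2 called 5 members higher and 1 lower, and 2106 genes in all. The median difference between the hairpins was 0.73 (log2) over the members and 0.0057 over all genes.

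In silenced cultures 1 of 30 members rose with shNup153-2, where 3.17% of 19846 genes were called (1.48% higher, 1.69% lower), and 3 of 30 members had an unadjusted p under 0.05 in edgeR, a smaller share than the 19.3% of all genes. Same-numbered silenced libraries deviated together, with residual correlations of 0.27, 0.55 and 0.59. With the replicate number as a block, 3 members rose, Cacna1g and Cacnb1 among them, and 1 fell, Scn2b. All genes called in that comparison numbered 4167 with the block and 629 without it.

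Silencing was compared with basal state in shNup153-2 and in shControl cultures, as there were no silenced shNup153-1 libraries. In shNup153-2 cultures 1 member rose and 7 fell, of 30, where 21.1% of 21286 genes were called (8.77% higher, 12.3% lower). In shControl cultures 4 rose and 2 fell, where 12% were called (6.14% higher, 5.83% lower). Scn1a fell and Cacnb3 rose in both, where 6.82% of all genes were called the same way in both. The members' median log2 fold change was -0.41 in shNup153-2 cultures and 0.01 in shControl cultures, against -0.0040 and -0.021 over all genes. The fall in shNup153-2 cultures and the basal rise with shNup153-2 share the 2 basal shNup153-2 libraries, so they are not independent.

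Whether the effect of shNup153-2 differed between silenced and basal cultures was tested as an interaction. No member passed the threshold in edgeR, where 0.0282% of genes did, and 9 of 30 members and 11.2% of all genes had an unadjusted p under 0.05. DESeq2 called 2 members, Cacna1a and Scn1a, both with a lower effect in silenced cultures, and 284 genes in all. The interaction was negative for 23 of 30 members and 50.8% of all genes, with a median of -0.47 (log2) over the members and -0.013 over all genes. It uses the same basal shNup153-2 libraries as the basal rise and the fall with silencing, so it is not independent of them. In silenced cultures the members' median log2 fold change with shNup153-2 was -0.00047, against 0.0069 over all genes.

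**Figure D2:**
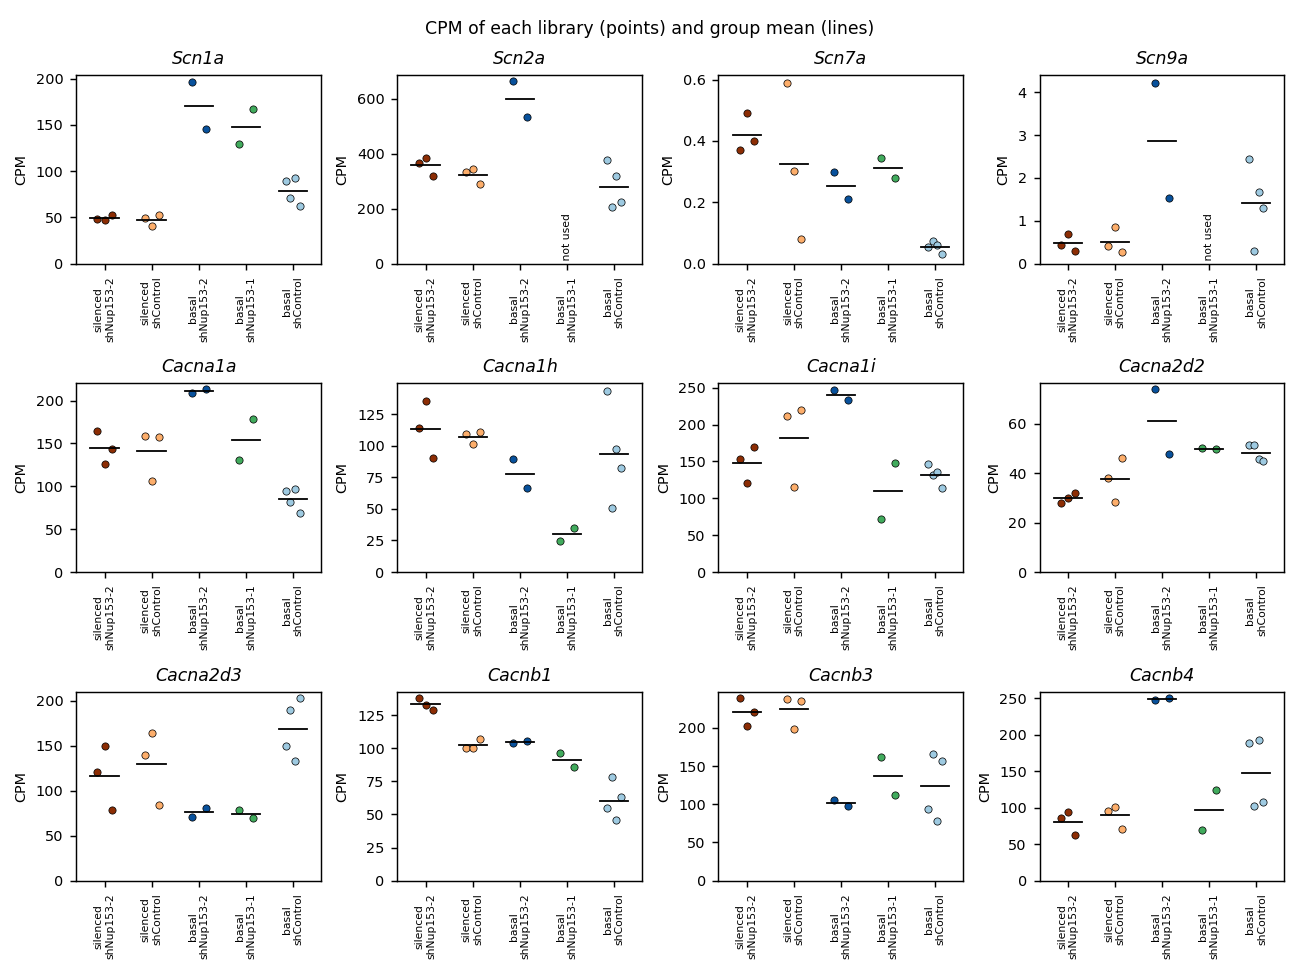
CPM of each library (points) and group mean (lines) for 12 of the genes past FDR 0.05 in at least 1 comparison, in silenced shNup153-2, silenced shControl, basal shNup153-2, basal shNup153-1 and basal shControl. Scn1a and Cacna1a lie above, and Cacna2d3 below, every basal shControl library with both hairpins, and Scn2a and Scn9a have no shNup153-1 value.

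Scn1a encodes Nav1.1, a main sodium channel of fast-spiking interneurons, whose loss causes Dravet syndrome in people. It was expressed at 197 and 145 CPM in basal shNup153-2 and at 129.7 and 167 CPM in basal shNup153-1, against 89.8, 70.6, 93.1 and 62.4 CPM in basal shControl. All 4 basal knockdown libraries lay above all 4 basal shControl libraries. The log2 fold change was 1.11 (SE 0.22, edgeR adjusted p = 0.0232) with shNup153-2 and 0.88 (SE 0.23, edgeR adjusted p = 0.0395) with shNup153-1. In silenced cultures it was expressed at 48.1, 46.9 and 52.3 CPM with shNup153-2, against 48.8, 40.1 and 52.9 CPM with shControl, and the groups overlapped (0.08, 95% interval -0.22 to 0.37, edgeR adjusted p = 0.804).

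All 6 silenced libraries thus lay below all basal ones for Scn1a. The fall in silenced against basal cultures was 1.85 with shNup153-2 (log2 fold change -1.85, SE 0.20, edgeR adjusted p = 0.000371) and 0.76 with shControl (-0.76, SE 0.17, edgeR adjusted p = 0.0164). Its interaction was -1.09 (SE 0.26, edgeR adjusted p = 0.171; DESeq2 adjusted p = 0.0365). The rise with shNup153-1 was lost without any of 7 of the 8 basal libraries (edgeR adjusted p up to 0.187), all but shControl replicate 3, and in the fit of its own 2 groups (0.0611), and that with shNup153-2 without shControl replicate 4 or either shNup153-2 library (up to 0.266) and with the length trend of the fold change removed (0.87, adjusted p = 0.0513). The fall with shControl was lost without silenced shControl replicate 1 or 2 (up to 0.0589) and in the fit of its own 2 groups (0.0511), while that with shNup153-2 was called in all 12 fits that left out 1 library. GABAergic interneuron markers, summed above, were also lower in the silenced libraries than in all basal ones. At basal state their sum lay within the shControl range with shNup153-2 and above it with shNup153-1. In silenced cultures shNup153-2 and shControl overlapped. The part of these markers in the Scn1a values was not tested.

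Scn2a encodes Nav1.2, the sodium channel of the initial segment of immature excitatory neurons. Levels were 665 and 532 CPM in basal shNup153-2, against 377, 204, 318 and 222 CPM in basal shControl, with no overlap. The rise was 1.09 on the log2 scale (SE 0.28, edgeR adjusted p = 0.0471). Silenced cultures held 366, 384 and 320.3 CPM with shNup153-2 and 332, 344 and 290.4 CPM with shControl, which lay close together. Scn2a was lower in silenced than in basal shNup153-2 cultures (-0.80, SE 0.25, edgeR adjusted p = 0.0409) and did not pass the test in shControl cultures (0.18, edgeR adjusted p = 0.625). Both calls rest on the 2 basal shNup153-2 libraries: without replicate 1 the adjusted p was 0.344 for the rise and 0.236 for the fall, and without replicate 2 it was 0.216 and 0.108. The rise was also lost without shControl replicate 2, 3 or 4 (0.0559, 0.0624 and 0.123), with no filter on low counts (0.0555) and with the length trend removed (0.83, adjusted p = 0.101). The fall was lost without silenced shControl replicate 1 or 3 or any silenced shNup153-2 library (0.0516 to 0.121) and with no filter (0.0517). With each library's length trend as an offset it was -0.27 (edgeR adjusted p = 0.209), and it was also lost with the length trend of the fold change removed.

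Scn3a, the sodium channel of the embryonic brain (Nav1.3), and Scn8a, that of mature initial segments and nodes of Ranvier (Nav1.6), were called in no comparison. Scn3a averaged 179 CPM in basal shNup153-2 and 90.6 CPM in basal shNup153-1, against 109 CPM in basal shControl. Scn8a averaged 233 CPM in basal shNup153-2 and 142 CPM in basal shNup153-1, against 186 CPM in basal shControl. Both shNup153-2 libraries were higher than both shNup153-1 libraries for each gene, as for many other members. The hairpin difference did not pass the test for Scn3a (edgeR adjusted p = 0.206) or Scn8a (edgeR adjusted p = 0.196). With 2 libraries per hairpin such a separation says little, and its share over all genes was not counted.

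Per kb of exon, Scn1a made up 8.18 ± 1.22% of the summed neuronal alpha genes in silenced shNup153-2 and 8.07 ± 1.55% in silenced shControl (SD, n = 3 each). At basal state it made up 16.7 ± 0.62% with shNup153-2 (SD, n = 2) and 14.5 ± 1.83% with shControl (SD, n = 4). Scn2a held the largest share of the 4 genes in each of these groups, from 44.1% in basal shControl to 51.6% in silenced shNup153-2. The summed level was 80.1 to 103 CPM per kb in basal shNup153-2, against 38.0 to 65.6 in basal shControl.

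**Figure D3:**
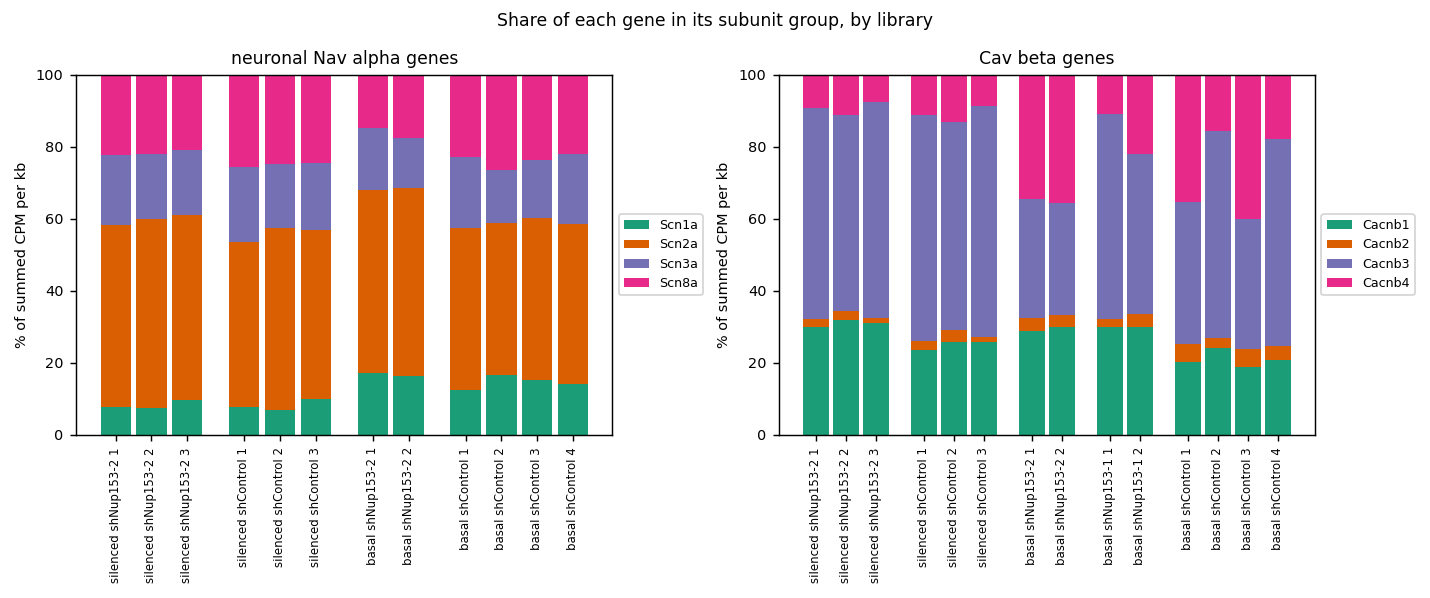
Share of each gene in the summed CPM per kb of the neuronal sodium channel alpha genes (left) and of the calcium channel beta genes (right), 1 bar per library; basal shNup153-1 is missing on the left because Scn2a has no value there. Scn1a (left, bottom) and Cacnb4 (right, top) take smaller shares in silenced shNup153-2 and shControl libraries than in those of basal shNup153-2 and shControl.

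Scn9a encodes Nav1.7, a channel of peripheral sensory neurons. Levels were 0.438, 0.701 and 0.301 CPM in silenced shNup153-2, against 4.22 and 1.52 CPM in basal shNup153-2, with no overlap. The log2 fold change was -2.65 (SE 0.73, edgeR adjusted p = 0.0262), and without basal shNup153-2 replicate 1 the adjusted p was 0.231. It was also lost without basal shNup153-2 replicate 2 or silenced shNup153-2 replicate 1 or 3 (0.0535, 0.0808 and 0.0897) and with the length trend of the fold change removed (-2.12, adjusted p = 0.0578). In shControl cultures it stood at 0.412, 0.845 and 0.271 CPM when silenced, against 2.44, 0.292, 1.66 and 1.29 CPM at basal state, and the groups overlapped.

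Scn7a, the sodium-sensing channel Nax, passed the test on very few counts. It held 33 counts over the 3 silenced shControl libraries and 8 counts over the 4 basal shControl libraries, of which none held more than 3. In CPM these were 0.588, 0.302 and 0.0814 in silenced shControl, against 0.0535, 0.0731, 0.0604 and 0.0314 in basal shControl. Silenced shNup153-2 held 0.369, 0.491 and 0.401 CPM of Scn7a, basal shNup153-2 0.298 and 0.210 CPM and basal shNup153-1 0.343 and 0.278 CPM. The fitted log2 fold change of 2.48 (SE 0.63, edgeR adjusted p = 0.0246) rests on these counts. It was lost without silenced shControl replicate 1 (edgeR adjusted p = 0.140), without basal shControl replicate 1, 3 or 4 (up to 0.0578), in the fit of its own 2 groups (0.0789) and in limma-voom (adjusted p = 0.0835). Scn10a and Scn11a, further channels of sensory neurons, averaged at most 1.01 and 0.445 CPM in any group and were not called.

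Scn2b, Scn3b and Scn4b encode beta subunits of sodium channels, which modulate gating. Scn2b averaged 58.2 CPM in silenced shNup153-2, against 86.5 CPM in silenced shControl. Its log2 fold change of -0.55 did not pass the test (edgeR adjusted p = 0.215), whereas with the replicate number as a block it was -0.57 (SE 0.08, edgeR adjusted p = 0.00354). At basal state Scn2b averaged 79.6 CPM with shNup153-2 and 112 CPM with shNup153-1, against 64.7 CPM with shControl. Scn3b varied little, between 169.9 CPM in silenced shNup153-2 and 224 CPM in basal shNup153-1, and Scn4b averaged at most 10.02 CPM in any group. Neither Scn3b nor Scn4b was called.

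Cacna1c and Cacna1d, the neuronal L-type channels, were called in no comparison. Cacna1c averaged 179 CPM in basal shNup153-2 and 89.9 CPM in basal shNup153-1, against 138 CPM in basal shControl, where single libraries ranged from 86.4 to 196 CPM. Cacna1d averaged 107 and 62.4 CPM in basal shNup153-2 and basal shNup153-1, against 81.5 CPM in basal shControl. Both genes held nearly equal shares of the Cav1 level per kb in basal shControl (49.6% each).

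Cacna1a encodes the P/Q-type channel that triggers transmitter release at many central synapses. It stood at 208 and 213 CPM in basal shNup153-2 and at 130.1 and 179 CPM in basal shNup153-1, against 94.3, 81.1, 96.7 and 69.3 CPM in basal shControl. Every knockdown library lay above every shControl library. The rise was 1.30 (SE 0.19, edgeR adjusted p = 0.00786) with shNup153-2 and 0.83 (SE 0.21, edgeR adjusted p = 0.0326) with shNup153-1. Removing the length trend, by library or from the fold change, left both calls in place. In silenced cultures levels were 165, 126 and 143 CPM with shNup153-2, against 159, 106 and 157 CPM with shControl, which overlapped (0.06, 95% interval -0.37 to 0.49, edgeR adjusted p = 0.909).

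Between states Cacna1a rose by 0.70 in silenced against basal shControl cultures (SE 0.17, edgeR adjusted p = 0.0217). In shNup153-2 cultures the log2 fold change was -0.59 (SE 0.20, edgeR adjusted p = 0.0559). The interaction of -1.30 (SE 0.27) had an edgeR adjusted p of 0.135 and a DESeq2 adjusted p of 0.00686. With shNup153-2 the basal call was lost without either shNup153-2 library (0.104 and 0.113). With shNup153-1 it was lost without shControl replicate 4 or any of the 4 knockdown libraries (edgeR adjusted p from 0.0614 to 0.182) and in the fit of its own 2 groups (0.0643). The silencing call was lost without silenced shControl replicate 1 or 3 (0.100 and 0.0918) and in the fit of its own 2 groups (0.0731).

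Cacna1b, the N-type channel, and Cacna1e, the R-type channel, were called in no comparison. Cacna1b averaged 234 and 124 CPM in basal shNup153-2 and basal shNup153-1, against 182 CPM in basal shControl, and Cacna1e averaged 324 and 156 CPM, against 189 CPM. Within the Cav2 genes Cacna1a held 34.1% of the level per kb in basal shNup153-2 and 42.4% in basal shNup153-1, against 23.1% in basal shControl. In silenced cultures its share was 30.8% with shNup153-2 and 33.0% with shControl.

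The Cav3 or T-type channels open near the resting potential and support burst firing. Cacna1i (Cav3.3) stood at 248 and 234 CPM in basal shNup153-2, against 147, 132, 136 and 114 CPM in basal shControl, with no overlap. The rise was 0.86 (SE 0.18, edgeR adjusted p = 0.0249). Basal shNup153-1 held 71.7 and 148 CPM, which overlapped with shControl, and the hairpins differed by 1.15 (SE 0.32, edgeR adjusted p = 0.0770; DESeq2 adjusted p = 0.0130). Silenced cultures held 153, 121 and 169.6 CPM with shNup153-2 and 212, 115 and 219.6 CPM with shControl.

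Silenced shNup153-2 cultures lay below basal ones for Cacna1i (-0.76, SE 0.25, edgeR adjusted p = 0.0466), and shControl cultures did not pass the test (0.44, edgeR adjusted p = 0.187). With each library's length trend as an offset the basal rise was 0.60 (edgeR adjusted p = 0.0581) and the fall with silencing -0.34 (edgeR adjusted p = 0.306). Both calls were also lost with the length trend of the fold change removed. The rise was lost without shControl replicate 4 or either shNup153-2 library (0.0822, 0.246 and 0.194), and in the fit of all 3 basal groups (0.0682). The fall was lost without any of the 5 shNup153-2 libraries, basal shControl replicate 3 or 4, or silenced shControl replicate 1 (0.0523 to 0.191), with DESeq2 size factors (0.0510) and with no filter on low counts (0.0559).

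Cacna1h (Cav3.2) fell with shNup153-1, to 24.9 and 35.2 CPM, against 144, 51.1, 97.3 and 82.2 CPM in basal shControl. Both libraries lay below all 4 shControl libraries, and the log2 fold change was -1.67 (SE 0.41, edgeR adjusted p = 0.0311). Basal shNup153-2 held 89.3 and 66.3 CPM and overlapped with shControl (-0.27, 95% interval -1.11 to 0.58, edgeR adjusted p = 0.654). In silenced cultures Cacna1h stood at 114, 135 and 90.6 CPM with shNup153-2, against 109, 101 and 111 CPM with shControl, which overlapped. The fall was lost without either shNup153-1 library, either shNup153-2 library or shControl replicate 3 or 4 (edgeR adjusted p from 0.0533 to 0.192), and in the fit of its own 2 groups (0.0533). Cacna1g (Cav3.1) averaged 114 CPM in silenced shNup153-2, against 94.4 CPM in silenced shControl, with 0.30 (edgeR adjusted p = 0.355) unblocked and 0.31 (SE 0.08, edgeR adjusted p = 0.0349) with the replicate block. At basal state Cacna1g averaged 96.8 and 48.6 CPM in shNup153-2 and shNup153-1, against 68.1 CPM in shControl.

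**Figure D4:**
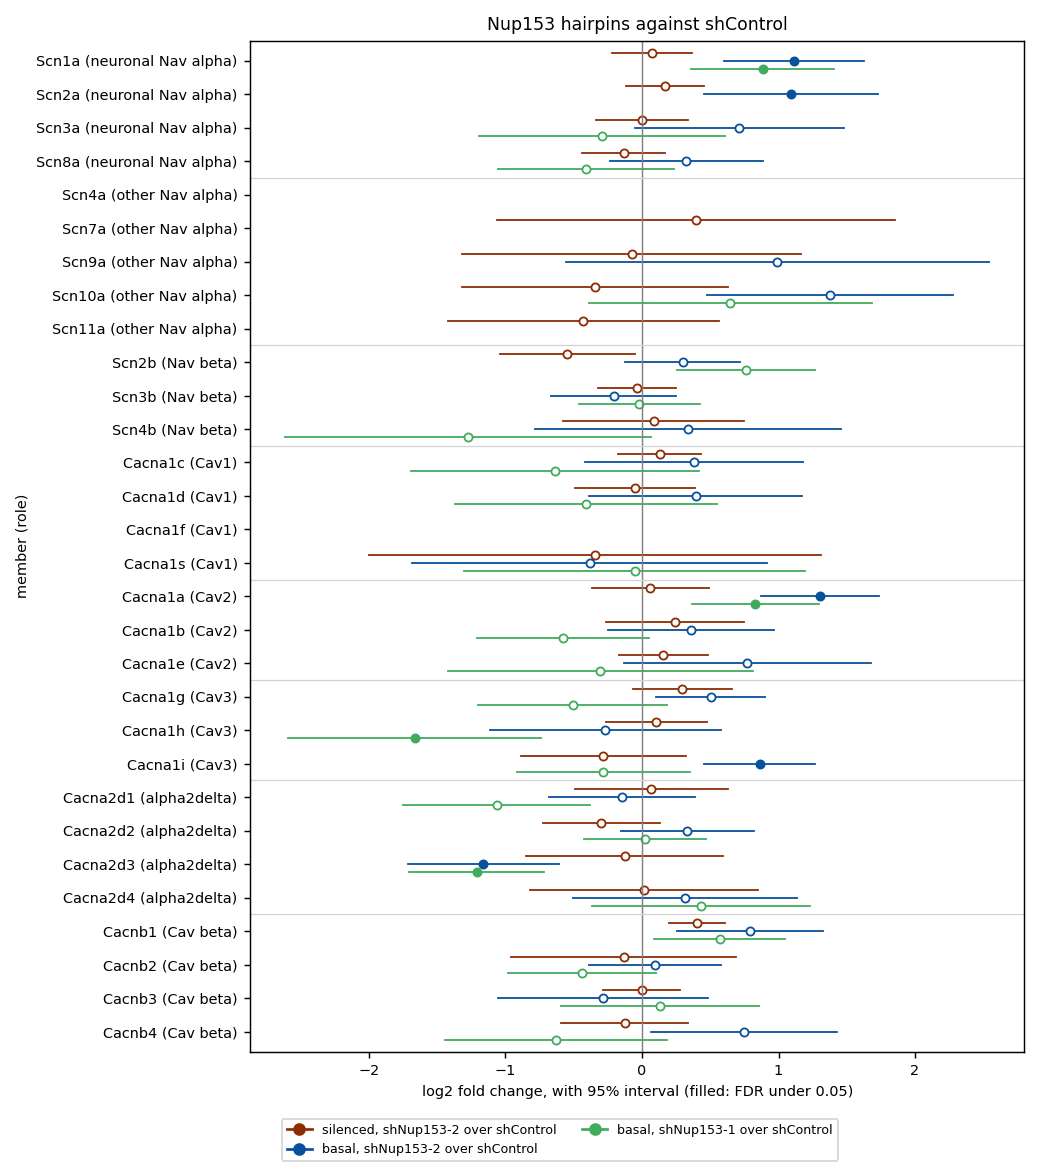
Log2 fold change and 95% interval of the genes shown, for shNup153-2 over shControl in silenced and in basal cultures and for shNup153-1 over shControl in basal cultures; filled points passed FDR 0.05 and genes with no point were not tested. Cacna1a and Scn1a lie right of 0, and Cacna2d3 left of it, with both hairpins at basal state.

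The alpha2delta subunits bring channels to the presynaptic membrane and are the binding site of gabapentin in the case of Cacna2d1 and Cacna2d2. Cacna2d3 fell with both hairpins, to 70.6 and 81.2 CPM with basal shNup153-2 and to 78.7 and 69.8 CPM with basal shNup153-1, against 149.5, 190.2, 134 and 204 CPM in basal shControl. All 4 knockdown libraries lay below all shControl libraries. On the log2 scale the change was -1.16 (SE 0.24, edgeR adjusted p = 0.0265) with shNup153-2 and -1.21 (SE 0.22, edgeR adjusted p = 0.0101) with shNup153-1, and the hairpins differed by 0.06 (95% interval -0.49 to 0.60). Silenced cultures held 121, 149.9 and 78.7 CPM with shNup153-2, against 140.2, 165 and 83.7 CPM with shControl, which overlapped (-0.13, 95% interval -0.85 to 0.60, edgeR adjusted p = 0.883).

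The fall of Cacna2d3 with shNup153-2 was lost without shControl replicate 4 (edgeR adjusted p = 0.0694) or either shNup153-2 library (0.271 and 0.190), and that with shNup153-1 without either shNup153-1 library (0.0709 and 0.0632). Removing the length trend, by library or from the fold change, left both calls in place. Its interaction was 0.97 (95% interval 0.08 to 1.86, edgeR adjusted p = 0.413).

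Cacna2d2 fell with silencing in shNup153-2 cultures, to 28.1, 30.1 and 32.1 CPM, against 74.1 and 47.8 CPM at basal state. The log2 fold change was -1.07 (SE 0.21, edgeR adjusted p = 0.00732), and it was lost without basal shNup153-2 replicate 1 (edgeR adjusted p = 0.102). In shControl cultures Cacna2d2 stood at 38.0, 28.4 and 46.3 CPM when silenced, against 51.4, 51.3, 45.6 and 45.1 CPM at basal state (-0.38, edgeR adjusted p = 0.197). Basal shNup153-1 held 50.3 and 49.6 CPM of Cacna2d2, within the range of basal shControl. Cacna2d1 averaged 262 CPM in basal shNup153-1, against 540.3 CPM in basal shControl, with -1.06 (SE 0.30) and an edgeR adjusted p of 0.0502. Cacna2d4 averaged at most 1.97 CPM in any group and was not called.

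The calcium channel beta subunits bind the pore-forming subunit inside the cell and promote its surface expression. Cacnb3 rose with silencing, to 239, 202 and 220.2 CPM in silenced shNup153-2, against 106 and 97.5 CPM in basal shNup153-2. In shControl cultures it stood at 238, 198 and 236 CPM when silenced, against 93.6, 166, 77.7 and 157 CPM at basal state. Silenced and basal libraries did not overlap in shNup153-2 or in shControl cultures. The log2 fold change was 1.06 (SE 0.29, edgeR adjusted p = 0.0244) in shNup153-2 cultures and 0.84 (SE 0.23, edgeR adjusted p = 0.0344) in shControl cultures. In basal shNup153-1 Cacnb3 held 163 and 112 CPM, within the range of basal shControl.

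Cacnb4, whose loss gives the lethargic mouse its seizures and ataxia, went the other way. It stood at 85.3, 94.0 and 62.3 CPM in silenced shNup153-2, against 247.2 and 249.98 CPM in basal shNup153-2. The fall was 1.68 (log2 fold change -1.68, SE 0.30, edgeR adjusted p = 0.00426), and it was called in all 12 fits that left out 1 library. In shControl cultures levels were 95.9, 102 and 70.8 CPM when silenced, against 189, 102, 193 and 108 CPM at basal state, where the highest silenced and the lowest basal library were nearly level, with a log2 fold change of -0.75 (SE 0.26, edgeR adjusted p = 0.0780; DESeq2 adjusted p = 0.0344). Basal shNup153-1 held 69.8 and 125 CPM.

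The Cacnb3 call was lost in shNup153-2 cultures without either basal or silenced replicate 1, basal replicate 2 or silenced replicate 3 of shNup153-2 (edgeR adjusted p from 0.0587 to 0.134). In shControl cultures it was lost without replicate 1 of either state, silenced replicate 3, or replicate 1 of shNup153-2 in either state (0.0507 to 0.114), and in the fit of its own 2 groups (0.102). Cacnb3 and Cacnb4 differed among the basal shControl libraries in opposite ways, replicates 2 and 4 being high for Cacnb3 and low for Cacnb4, and those libraries also had the negative slopes with exon length.

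Cacnb1 rose with silencing in shControl cultures, to 101, 100.1 and 107 CPM, against 54.6, 78.5, 45.7 and 63.3 CPM at basal state. The rise was 0.74 on the log2 scale (SE 0.16, edgeR adjusted p = 0.0112). It was called in all 12 fits that left out 1 library and lost in the fit of its own 2 groups (edgeR adjusted p = 0.0520). In silenced cultures Cacnb1 stood at 138, 133 and 129 CPM with shNup153-2, above every silenced shControl library, with 0.40 (SE 0.09, edgeR adjusted p = 0.0612) unblocked and 0.40 (SE 0.07, edgeR adjusted p = 0.00935) with the replicate block. Basal shNup153-2 held 104 and 105 CPM and basal shNup153-1 96.6 and 85.6 CPM, all above basal shControl. These missed the threshold, with 0.79 (edgeR adjusted p = 0.0715) for shNup153-2 and 0.57 (edgeR adjusted p = 0.111) for shNup153-1. Cacnb2 averaged 25.1 to 35.8 CPM over the 5 groups and was not called.

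Per kb of exon, Cacnb4 held 9.42% of the beta genes in silenced shNup153-2 and 11.1% in silenced shControl. At basal state it held 35.1% with shNup153-2, 16.5% with shNup153-1 and 27.3% with shControl. Cacnb3 held 57.6% and 61.5% in silenced shNup153-2 and silenced shControl, and 32.1%, 50.7% and 47.7% in basal shNup153-2, basal shNup153-1 and basal shControl.

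**Figure D5:**
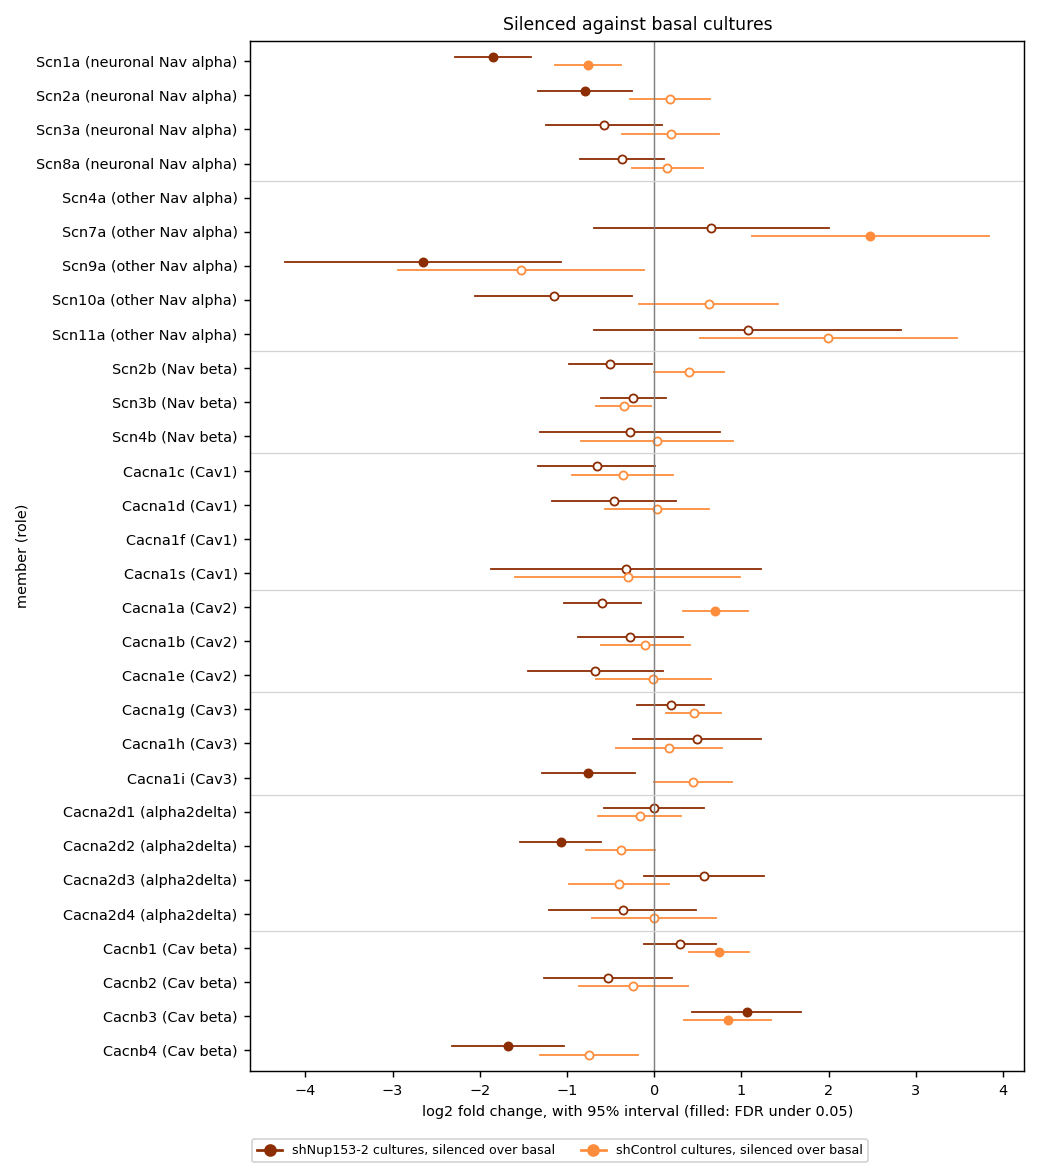
Log2 fold change and 95% interval of the genes shown, for silenced over basal cultures, in shNup153-2 and in shControl cultures; filled points passed FDR 0.05. Scn1a lies left of 0 and Cacnb3 right of it in both shNup153-2 and shControl cultures. Cacna1a is right of 0 in shControl cultures (0.70) and left of it in shNup153-2 cultures (-0.59, not past the threshold).

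A list of 48 genes held proteins that bind, anchor or modulate these channels, and the complex of the sodium leak channel Nalcn. Of these genes, 44 were in both tables. With basal shNup153-2, 7 of 43 tested rose, where 5.64% of all genes did, and with basal shNup153-1, 2 of 40 rose, where 6.41% did. In silenced cultures 1 of 44 rose with shNup153-2, where 1.48% of all genes did. No gene of the list fell in these comparisons in edgeR, where 1, 1 and 2 of them were lower at an unadjusted p under 0.05; no other tool was run on the list. With silencing 2 of 44 rose and 12 fell in shNup153-2 cultures, where 8.77% and 12.3% of all genes did, and 1 rose and 6 fell in shControl cultures, where 6.14% and 5.83% did. The median log2 fold change of the list was 0.29 with basal shNup153-2, -0.02 with basal shNup153-1, -0.42 with silencing in shNup153-2 cultures and -0.05 with silencing in shControl cultures, against -0.029, -0.016, -0.0040 and -0.021 over all genes.

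Stac2, an adaptor that binds L-type channels, rose with both hairpins. It averaged 68.1 ± 2.00 CPM in basal shNup153-2 and 74.5 ± 23.7 CPM in basal shNup153-1 (SD, n = 2 each), against 9.13 ± 4.46 CPM in basal shControl (SD, n = 4). The log2 fold change was 2.89 (SE 0.38, edgeR adjusted p = 0.00621) with shNup153-2 and 2.99 (SE 0.39, edgeR adjusted p = 0.00352) with shNup153-1. Under silencing it averaged 25.5 CPM with shNup153-2, against 14.5 CPM with shControl, which did not pass the test (0.84, SE 0.22, edgeR adjusted p = 0.0952). Stac2 was lower in silenced than in basal shNup153-2 cultures (-1.47, SE 0.37, edgeR adjusted p = 0.0189). In shControl cultures silencing did not pass (0.63, edgeR adjusted p = 0.218).

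The presynaptic scaffolds Rims1 and Rims2, which tether Cav2 channels at the active zone, fell with silencing in shNup153-2 cultures, by 1.42 (SE 0.22, edgeR adjusted p = 0.00253) and by 1.38 (SE 0.15, edgeR adjusted p = 0.000380). Rims2 also fell in shControl cultures (-0.73, SE 0.13, edgeR adjusted p = 0.00519), and Rims1 did not pass there (-0.46, edgeR adjusted p = 0.133). With basal shNup153-2 Rims2 rose by 0.83 (SE 0.17, edgeR adjusted p = 0.0237), and Rims1 did not pass (0.81, edgeR adjusted p = 0.0716). These basal changes and the falls in shNup153-2 cultures share the 2 basal shNup153-2 libraries, so they are not independent. Nalcn, the sodium leak channel, averaged 74.2 CPM in silenced shNup153-2, against 163 CPM in basal shNup153-2, and 67.4 CPM in silenced shControl, against 115 CPM in basal shControl. Its fold changes were -1.18 (edgeR adjusted p = 0.00392) and -0.79 (edgeR adjusted p = 0.0153). Unc80, a subunit of the Nalcn complex, fell by 1.59 in shNup153-2 cultures (edgeR adjusted p = 0.0118) and by 1.05 in shControl cultures (edgeR adjusted p = 0.0458). Nedd4l, a ubiquitin ligase that removes sodium channels from the surface, rose by 0.78 with silencing in shControl cultures (edgeR adjusted p = 0.0111). In shNup153-2 cultures silencing did not pass for Nedd4l (0.07, edgeR adjusted p = 0.814). At basal state Nedd4l rose by 0.93 with shNup153-2 (edgeR adjusted p = 0.0388) and did not pass with shNup153-1 (0.90, edgeR adjusted p = 0.0562). Cntnap2, which clusters potassium channels beside the node of Ranvier, fell by 0.94 with silencing in shNup153-2 cultures (edgeR adjusted p = 0.00528) and by 0.72 in shControl cultures (edgeR adjusted p = 0.0105). Slmap, a membrane-anchored protein, rose by 0.93 with shNup153-2 at basal state (edgeR adjusted p = 0.0140) and did not pass with shNup153-1 (0.33, edgeR adjusted p = 0.175).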

How the data were processed

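Gene counts per library were deposited by the authors in 2 tables, 1 for basal and 1 for silenced cultures. Per the submitters' processing notes, featureCounts 2.0.1, FastQC and the mm10 build were used; the aligner, annotation and strand setting are, in the sources used here, not given. Per the labels' protocols, libraries were poly(A)-selected and strand-specific, and read as 100 bp pairs. The 2 basal columns that share 1 name were not used, and shNup153-1 was used only on the lines before its columns leave the register of the symbols.

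Genes with at least 10 counts in at least 2 libraries of a fit were tested with edgeR 4.0.16 (R 4.3.3; TMM scaling, quasi-likelihood F test, Benjamini-Hochberg adjustment over all genes tested, threshold 0.05). The standard error is the log2 fold change divided by the square root of F, and intervals are at 95%. Basal shNup153-1, and the difference between the hairpins, were fitted with all 3 basal groups; basal shNup153-2 and silenced shNup153-2 each with their own controls; silencing and the interaction in 1 joint fit of 4 groups. CPM values are on 1 TMM scale over the 14 libraries, and levels per length divide by the union of GENCODE exons. The fitting script was tested on simulated data. Total counts of 26863535 to 56299817 limit the precision of genes with few counts. DESeq2 1.42.0, limma 3.58.1 (voom), other scalings and filters, a replicate block, length corrections and leaving out each library were tried.

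Same-numbered silenced libraries deviated together (correlations of 0.27, 0.55 and 0.59), and the labels give 1 litter as 1 replicate. The members, the gene lists and the markers were chosen with earlier results of these data known. Some members are counted but their own results are not reported here. For the others, values in every library are given for each member past the threshold in at least 1 comparison; of the channel partners, up to 8 with the smallest p are named.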

Additional observations from a re-analysis of the deposited data

Results flagged for a closer look

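Cacna1s, the skeletal muscle L-type channel, stood at 0.804 CPM in basal shControl replicate 2, against 0.283 to 0.357 CPM in the other 3 basal shControl libraries. The gap to the nearest library was 0.858 of the range of the group. Of 30 groups of values examined in this way 1 was found, and chance gives about 1 in 20.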

How the results depend on the processing

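No called value changed sign under any alternative run. Leaving out 1 library kept 171 calls of single genes and lost 81; the other alternatives kept 199 and lost 33. Counts are of members higher, members lower and all genes called. Leaving out 1 library gave 0 to 3, 0 to 3 and 349 to 2033 for basal shNup153-1, 0 to 2, 0 to 0 and 0 to 991 between the hairpins, 0 to 4, 0 to 1 and 15 to 2156 for basal shNup153-2, and 0 to 1, 0 to 0 and 4 to 640 for silenced shNup153-2. It gave 1 to 6, 1 to 4 and 1051 to 3422 for silencing in shControl, 0 to 1, 2 to 9 and 847 to 6108 for silencing in shNup153-2, and 0 to 0, 0 to 0 and 0 to 16 for the interaction. DESeq2's Wald test called 3141 genes for basal shNup153-1, 3619 for basal shNup153-2, 2 members higher and 1814 genes for silenced shNup153-2, 5 members higher, 1 lower and 2106 genes between the hairpins, and 2 members lower and 284 genes for the interaction. With the replicate block, basal shNup153-1 had 0 members higher, 0 lower and 0 genes, the hairpin difference 0 genes, silenced shNup153-2 3 members higher, 1 lower and 4167 genes, silencing in shNup153-2 2 members higher, and the interaction 2 genes. Same-numbered pairs that include a basal library had correlations from -0.64 to 0.27, not all above 0.1, so those numbers were not taken as pairs. Under the block the basal shNup153-1 calls, Cacna1i with basal shNup153-2 (adjusted p 0.122), Scn2a (0.0538) and Scn9a (0.0710) with silencing in shNup153-2 and Scn7a (0.0711) with silencing in shControl did not pass. With each library's length trend as an offset, chosen after seeing the data, 1 member was higher and 1153 genes were called between the hairpins, and 3 members were higher with silencing in shNup153-2. With the length trend of the fold change removed, 1 member was higher with basal shNup153-2, 2 were higher and 4 lower with silencing in shNup153-2, and 3 genes were called for the interaction. The interaction had 0 genes with DESeq2 size factors, 3 with no filter and 0 with filterByExpr, against 6. Fits of the compared groups alone gave 1 member higher and 1194 genes for basal shNup153-1, 1 member higher between the hairpins, 0 higher, 1 lower and 1211 genes for silencing in shControl, and 11 lower and 7739 genes for silencing in shNup153-2. The cause was not tested in any of these. Genes under 1 CPM are limited by depth.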
